A study of Mus musculus with 10 samples.

Results

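Expression and Pax5 binding were examined for 10 genes that code for Toll-like receptors and for the Cd180 receptor complex, of 25579 genes in the deposited RNA-seq files. They were Tlr1, Tlr2, Tlr3, Tlr4, Tlr6, Tlr7, Tlr9, Cd180, Ly86 and Unc93b1, listed by name as a family of pattern recognition receptors and their partners. RNA-seq was available for bone marrow cells of C57BL/6 mice with 4 Pax5 genotypes, 2 libraries each, and Pax5 ChIP-seq for 2 libraries, 1 per genotype. The cells of 3 groups were labelled pro-B cells: Pax5+/+ cells, Pax5+/- cells with a null allele beside a normal one, and Pax5 R31Q/- cells, in which an allele coding for the Pax5-R31Q protein is the only one left. By the study's gate, the markers of pro-B cells included B220 and Kit. The Pax5-/- libraries were labelled progenitor cells and derive from the Vav-Cre Pax5 fl/fl genotype, in which Cre is active in hematopoietic cells. The study calls them pro-B cells sorted ex vivo, and a gate of their own was not stated. In TPM, read counts are corrected for gene length and brought to one shared total across libraries. For ChIP-seq, the cells were cultured short-term and precipitated with an antibody against the paired domain, the region of Pax5 that R31Q changes. The control ChIP-seq library was Rag2-/- with normal Pax5, a genotype that the RNA-seq groups do not have, and the description of the other library writes the mutation under the name of Rag2 while its characteristics give Pax5(R31Q/-), which were followed. The labels gave no age of the mice and did not say whether libraries came from separate mice.

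Toll-like receptors recognize microbial molecules and signal through adaptor proteins to NF-kB and interferon regulatory factors. Tlr1, Tlr2, Tlr4 and Tlr6 act at the cell surface, where Tlr2 pairs with Tlr1 or Tlr6 to bind lipopeptides and Tlr4 senses lipopolysaccharide. Tlr3, Tlr7 and Tlr9 sense nucleic acids in endosomes, to which they are carried by the membrane protein Unc93b1. Cd180 is a related surface receptor without a signalling domain of the Toll type, and it needs the secreted partner Ly86 (MD-1) to reach the surface of B cells. Pax5 is the transcription factor that commits progenitors to the B cell lineage.

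The reads recovered from the TPM values came to between 21467416 and 34339969 on genes per library, the lowest in Pax5-/- replicate 1. Pax5 itself was at 418 and 444 TPM in Pax5+/+, 272 and 287 in Pax5+/-, 306 and 293 in Pax5 R31Q/-, and 1242 and 1409 in Pax5-/- libraries. A value per gene does not show which exons were read, so it does not check the deletion in the libraries labelled Pax5-/-. Among the markers of pro-B cells, Cd79a, Cd79b, Ebf1, Igll1, Rag1 and Vpreb1 fell and Dntt rose in Pax5-/- against Pax5+/+ cells. For testing, limma was fitted once to all 4 genotypes on log2(TPM + 1), and a difference passed at a Benjamini-Hochberg adjusted p under 0.05 over the 13436 genes that reached 1 TPM in some library. All 10 genes were among them, Tlr3 only through Pax5-/- replicate 2. The log2 differences given here are of log2(TPM + 1), which understates ratios of means where TPM is low. The smallest p that an exact permutation of 2 libraries against 2 allows is 0.333. The p-values given here therefore come from limma's pooled estimate of the spread between these libraries, and that spread may be technical. The median of all genes tested lay at -0.11 in Pax5-/- against Pax5+/+ and at 0.13 in Pax5 R31Q/- against Pax5-/-, and within 0.044 of 0 in the other 3 comparisons.

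The largest differences of the 10 genes from Pax5+/+ were found in the libraries labelled Pax5-/-. Tlr7, Ly86 and Cd180 rose there, Tlr4 and Unc93b1 fell, and Tlr9, Tlr1, Tlr2 and Tlr6 did not pass. Tlr3 also passed, but since it entered the test only through a library of the group in which it was high, it was set aside from the count. Of the other 9 genes, 3 were higher, where 16.2% of all genes tested were called higher, and 2 were lower, where 19.7% were called lower. The median difference was 0.33 on the log2 scale over the 10 genes and 0.10 without Tlr3. In Pax5 R31Q/- against Pax5+/+ cells, Unc93b1 alone passed, and it fell. No gene of the 10 was higher, where 1.62% of all genes were called higher, and 1 was lower, where 2.55% were called lower. Their median difference was -0.06, and -0.21 without Tlr3. At an unadjusted p under 0.05, Ly86 and Tlr7 were higher and Unc93b1 was lower in Pax5 R31Q/- cells, where 8.82% of all genes were higher and 9.94% lower by that rule. A fit of the recovered reads by limma-voom called 0 of the 10 genes higher and 1 lower, beside 2.40% and 3.73% of all genes. In Pax5+/- against Pax5+/+ cells, 0 genes passed in either direction. There 0% of all genes were called higher and 0.0223% lower, 0 of the 10 genes had an unadjusted p under 0.05 (6.06% of all genes in either direction), and voom called 0 (0.224% of all genes).

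**Figure D1:**
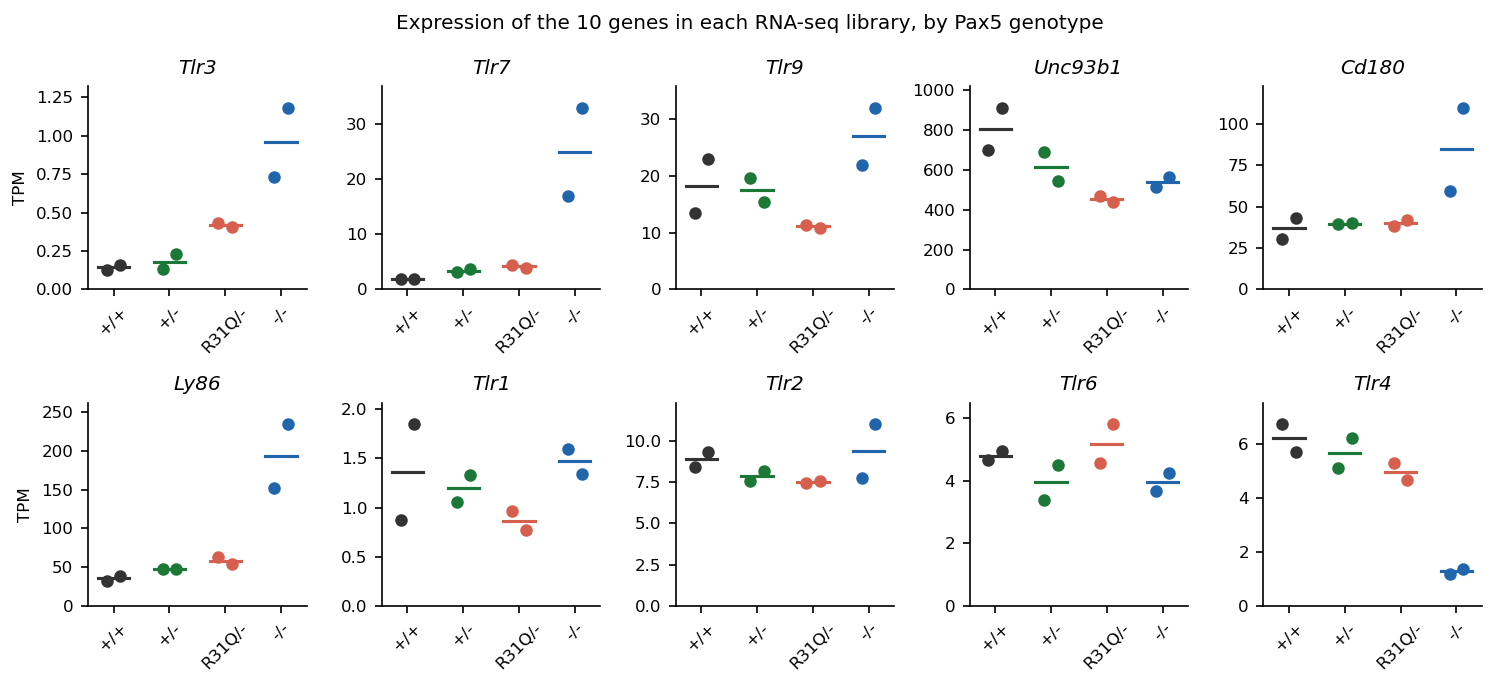
TPM of each of the 10 genes in the 8 RNA-seq libraries, with 1 point per library, a line at the mean of the 2 libraries of a genotype, and an axis from 0 that differs between genes. Tlr7, Ly86 and Cd180 were highest in both Pax5-/- libraries, and Tlr4 was lowest there.

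**Figure D2:**
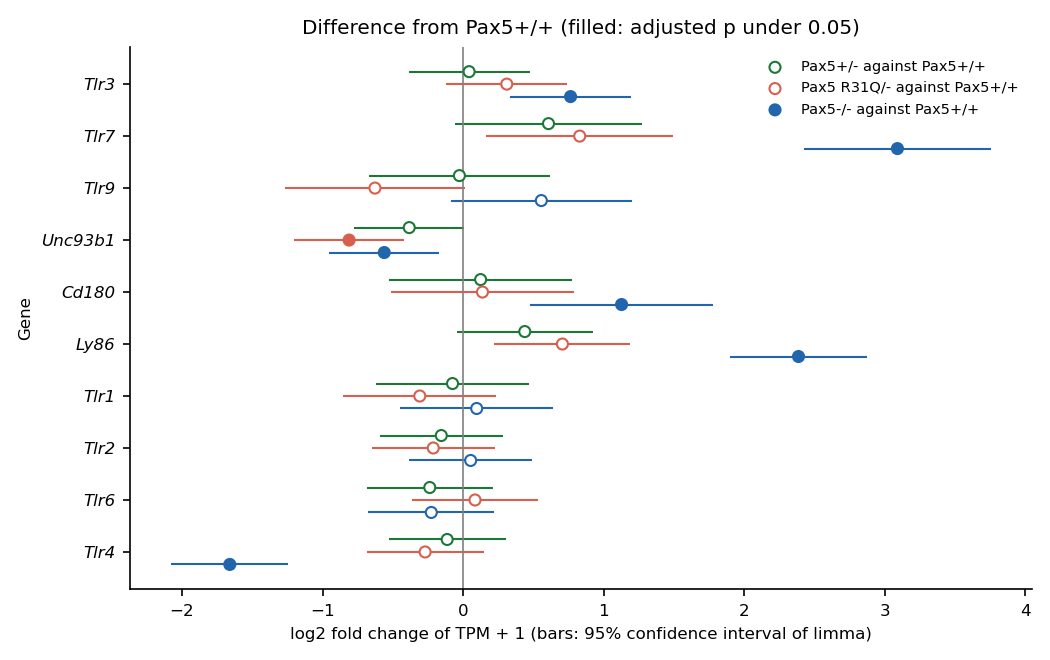
Log2 fold change of TPM + 1 against Pax5+/+ for each gene in Pax5+/-, Pax5 R31Q/- and Pax5-/- cells, with the 95% confidence interval of limma as bars. Filled points have an adjusted p under 0.05, which 6 genes reached in Pax5-/- (Tlr3 among them), Unc93b1 in Pax5 R31Q/- and none in Pax5+/- cells.

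Among the endosomal receptors, Tlr7, which senses single-stranded RNA, changed most. It was at 1.90 TPM in both Pax5+/+ libraries, at 3.17 and 3.69 TPM in Pax5+/-, at 4.51 and 3.82 TPM in Pax5 R31Q/-, and at 17.0 and 32.9 TPM in Pax5-/- libraries. The 4 genotypes did not overlap, in that order, and Pax5-/- replicate 2 was far above replicate 1. In Pax5-/- cells the mean was 13.1 times that of Pax5+/+ cells. On the log2(TPM + 1) scale the difference was 3.09 (SE 0.29, limma adjusted p = 0.000188), less than this ratio amounts to. For Pax5 R31Q/- cells the mean was 2.19 times that of Pax5+/+ cells (log2 difference 0.83, SE 0.29, limma adjusted p = 0.176). This difference passed when either Pax5-/- library was left out of the fit. It did not pass with only these 2 genotypes fitted, which leaves out both (limma adjusted p = 0.0711). All comparisons share 1 residual spread, to which the Pax5-/- pair contributes. In Pax5+/- cells the ratio was 1.80, with a limma adjusted p of 0.898.

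Tlr9, the sensor of unmethylated CpG DNA, gave no difference from Pax5+/+ that passed. It had 13.5 and 23.0 TPM in Pax5+/+, 19.7 and 15.3 in Pax5+/-, 11.4 and 10.8 in Pax5 R31Q/-, and 21.9 and 32.0 in Pax5-/- libraries. Both Pax5 R31Q/- libraries were below every other library, and the Pax5+/+ pair spanned the range of Pax5+/- and reached into that of Pax5-/-. The log2 difference of Pax5 R31Q/- from Pax5+/+ was -0.63 (95% confidence interval -1.27 to 0.01, limma adjusted p = 0.275), and that of Pax5-/- was 0.56 (95% confidence interval -0.08 to 1.20, limma adjusted p = 0.152). Both depended on the Pax5+/+ pair. Without its replicate 1 they were -0.99 and 0.20, and without replicate 2 they were -0.27 and 0.92, none of which passed. The Pax5-/- value was 0.30 without Pax5-/- replicate 2. Between the mutants, Tlr9 was lower in Pax5 R31Q/- than in Pax5-/- cells by 2.43-fold (log2 difference -1.18, SE 0.28, limma adjusted p = 0.0148). Without Pax5-/- replicate 2 that call was lost, at an adjusted p of 0.0537, as it was without either Pax5 R31Q/- library.

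Tlr3, the receptor for double-stranded RNA, was near the limit of detection. It rested on 8 and 9 reads in Pax5+/+, 8 and 14 in Pax5+/-, 27 and 25 in Pax5 R31Q/-, and 33 and 75 in Pax5-/- libraries. These came to 0.128 and 0.162 TPM, 0.131 and 0.230 TPM, 0.432 and 0.409 TPM, and 0.733 and 1.18 TPM. The Pax5 R31Q/- and Pax5-/- libraries lay above all others and apart from each other. On the log2(TPM + 1) scale, which understates changes at this level, the difference of Pax5-/- from Pax5+/+ was 0.77 (SE 0.19, limma adjusted p = 0.0156) and that of Pax5 R31Q/- was 0.31 (adjusted p = 0.396). Only Pax5-/- replicate 2 brought Tlr3 into the test, so the first p is that of a gene selected through its high group, and with a filter of 1 TPM in 2 libraries it was not tested. It also did not pass when only these 2 genotypes were fitted (adjusted p = 0.0564) or without Pax5+/+ replicate 1 (adjusted p = 0.0501).

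Unc93b1, the carrier of the nucleic acid sensors, was the most abundant of the 10 genes in every library and was lower in both mutants. It had 696 and 909 TPM in Pax5+/+, 688 and 541 in Pax5+/-, 467 and 440 in Pax5 R31Q/-, and 515 and 564 in Pax5-/- libraries. All 4 libraries of the mutants were below both Pax5+/+ libraries, and the Pax5+/- pair lay between and overlapped with Pax5-/-. The mean of Pax5 R31Q/- cells was 1.77-fold below that of Pax5+/+ cells (log2 difference -0.81, SE 0.17, limma adjusted p = 0.0416). In Pax5-/- cells it was 1.49-fold below (log2 difference -0.56, SE 0.17, limma adjusted p = 0.0351). Both calls lay close to the threshold. The first was lost in 10 of 16 alternatives, with adjusted p values from 0.0179 to 0.285, and the omission of any library except Pax5+/+ replicate 1 was among them. The second was lost in 9 of 16, with adjusted p values from 0.0239 to 0.160. These included a scaling by the median ratio (adjusted p = 0.0741) and the omission of Pax5+/+ replicate 2 or of any Pax5 R31Q/- or Pax5-/- library. Leaving out Pax5+/+ replicate 2, the highest library, gave log2 differences of -0.62 (adjusted p = 0.202) in Pax5 R31Q/- and -0.37 (adjusted p = 0.160) in Pax5-/- cells. Pax5 R31Q/- and Pax5+/- cells differed by -0.43 on the log2 scale (95% confidence interval -0.82 to -0.03, limma adjusted p = 0.491).

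The Cd180 complex rose in Pax5-/- cells in both of its subunits. Ly86 had 32.0 and 39.1 TPM in Pax5+/+, 48.3 TPM in each of the Pax5+/-, 63.4 and 53.8 in the Pax5 R31Q/-, and 153 and 234 in the Pax5-/- libraries. The 4 genotypes did not overlap, in that order. The difference of Pax5-/- from Pax5+/+ was 5.45-fold (log2 difference 2.39, SE 0.21, limma adjusted p = 0.000141) and was passed in all 16 alternatives. For Pax5 R31Q/- cells the ratio was 1.65 (log2 difference 0.71, SE 0.21, limma adjusted p = 0.121). Like that of Tlr7, it passed when either Pax5-/- library was left out, but not with only these 2 genotypes fitted (limma adjusted p = 0.113). For Pax5+/- cells the ratio was 1.36 (adjusted p = 0.904).

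Cd180, the receptor subunit, had 30.6 and 43.4 TPM in Pax5+/+, 39.7 and 40.0 in Pax5+/-, 38.4 and 42.1 in Pax5 R31Q/-, and 59.5 and 110 in Pax5-/- libraries. The 2 intermediate genotypes lay within the range of the Pax5+/+ pair, and both Pax5-/- libraries above it. In Pax5-/- cells Cd180 was 2.29-fold higher than in Pax5+/+ cells (log2 difference 1.13, SE 0.28, limma adjusted p = 0.0171). Without Pax5-/- replicate 2 the log2 difference was 0.69, more than 1.5 times smaller, with an adjusted p of 0.0383, and the call was lost without Pax5+/+ replicate 1 (adjusted p = 0.106) and with only these 2 genotypes fitted (adjusted p = 0.0925). In Pax5 R31Q/- against Pax5+/+ cells the log2 difference was 0.14 (95% confidence interval -0.51 to 0.79, adjusted p = 0.811).

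Among the receptors of the cell surface, Tlr4 fell and the partners of the lipopeptide receptor did not pass. Tlr4 had 6.74 and 5.70 TPM in Pax5+/+, 5.12 and 6.25 in Pax5+/-, 5.29 and 4.67 in Pax5 R31Q/-, and 1.19 and 1.37 in Pax5-/- libraries. Both Pax5-/- libraries were far below the other 6, of which the Pax5+/- pair overlapped with both other genotypes. The mean of Pax5-/- was 4.86-fold below that of Pax5+/+ cells (log2 difference -1.66, SE 0.18, limma adjusted p = 0.000393), and the call was passed in all 16 alternatives. The log2 difference of Pax5 R31Q/- from Pax5+/+ cells was -0.27 (95% confidence interval -0.69 to 0.15).

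Tlr2 had 8.43 and 9.34 TPM in Pax5+/+, 7.56 and 8.19 in Pax5+/-, 7.47 and 7.59 in Pax5 R31Q/-, and 7.75 and 11.0 in Pax5-/- libraries. The first 3 genotypes lay between 7.47 and 9.34 TPM, and of the Pax5-/- pair the lower library fell within that range and the higher one above it. Tlr6, one of its partners, had 4.67 and 4.95 TPM in Pax5+/+, 3.40 and 4.51 in Pax5+/-, 4.57 and 5.81 in Pax5 R31Q/-, and 3.69 and 4.25 in Pax5-/- libraries. Tlr1, the other partner, had 0.871 and 1.85 TPM in Pax5+/+, 1.06 and 1.33 in Pax5+/-, 0.964 and 0.770 in Pax5 R31Q/-, and 1.60 and 1.34 in Pax5-/- libraries, from 32 to 70 reads. For Tlr1, the Pax5+/+ pair alone spanned the whole range of the other genotypes apart from the lowest Pax5 R31Q/- library. The 95% confidence intervals of the log2 difference of Pax5-/- from Pax5+/+ were -0.38 to 0.49 for Tlr2, -0.68 to 0.22 for Tlr6 and -0.45 to 0.64 for Tlr1. Tlr1 and Tlr6 are neighbours with similar sequence, and 15.1% of the 50-base words of the Tlr1 transcripts also occur in Tlr6. Reads from those stretches cannot be assigned to either gene, so both values are uncertain. Tlr6 also overlaps Fam114a1 on the other strand, and whether the counting used strand is not given in the sources used here.

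Compared per length in Pax5+/+ cells, the order of the mean levels was Unc93b1 at 803 TPM, Cd180 at 37.0, Ly86 at 35.6, Tlr9 at 18.3, Tlr2 at 8.89, Tlr4 at 6.22, Tlr6 at 4.81, Tlr7 at 1.90, Tlr1 at 1.36 and Tlr3 at 0.145 TPM. The libraries of Cd180 and Ly86 overlapped, and those of the other neighbours did not. In Pax5-/- cells, Ly86 at 194 ± 57.7 TPM (SD, n = 2) stood above Cd180 at 84.7 ± 35.6 TPM, and Tlr7 at 25.0 ± 11.3 TPM overlapped with Tlr9 at 27.0 ± 7.09 TPM. Tlr4 at 1.28 ± 0.131 TPM had dropped among Tlr1 and Tlr3.

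Pax5 R31Q/- cells were also set against the 2 genotypes on either side of them. Against Pax5-/- cells, Tlr4 was higher, and Tlr7, Ly86, Tlr9 and Cd180 were lower. This was 1 of 10 genes higher, where 19.9% of all genes were called higher, and 4 of 10 lower, where 14.7% were. The deficit of Pax5 R31Q/- cells was 5.99-fold for Tlr7 (log2 difference -2.26, limma adjusted p = 0.00109), 3.31-fold for Ly86 (-1.68, adjusted p = 0.00099) and 2.10-fold for Cd180 (-0.99, adjusted p = 0.0299). Tlr4 was 3.89-fold higher in Pax5 R31Q/- cells (1.39, adjusted p = 0.00118). The call for Cd180 was lost in 7 of 16 alternatives, without either Pax5 R31Q/- library, either Pax5+/- library or Pax5-/- replicate 2 among them, and without the last of these the log2 difference was -0.55. Against Pax5+/- cells, 0 of the 10 genes passed, where 0.268% of all genes were called higher and 0.350% lower. There only Unc93b1 had an unadjusted p under 0.05 (8.79% of all genes in either direction), and voom called 0 (1.40% of all genes).

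Markers of other cell types moved with the Pax5-/- libraries. Plasmacytoid dendritic cells, which are known for Tlr7 and Tlr9, are marked by Siglech, which was at 54.4 and 158 TPM in Pax5-/- libraries against 11.7 and 3.37 in Pax5+/+, 1.72 and 2.64 in Pax5+/-, and 0.694 and 1.33 in Pax5 R31Q/- libraries. Of the 10 markers on the list, 7 rose in Pax5-/- against Pax5+/+ cells (Siglech, Bst2, Ccr9, Cox6a2, Irf8, Pacsin1 and Lair1), Spib fell, and none was at 0 in any library. Of all genes tested, 16.2% were called higher and 19.7% lower in this comparison. Their summed level was 1022 and 1784 TPM in Pax5-/-, 1085 and 1047 in Pax5+/+, 973 and 864 in Pax5+/-, and 591 and 542 in Pax5 R31Q/- libraries, of which Spib took the largest part in Pax5+/+ libraries at 635 and 641 TPM. Pax5-/- replicate 2, the higher of its pair for Siglech, was also the higher for every gene of the 10 except Tlr1, those that fell included. The typical gene was higher there too. The median log2 difference of all genes tested from Pax5+/+ was 0.011 without Pax5-/- replicate 1 and -0.219 without replicate 2. Tlr7 and Ly86 in Pax5 R31Q/- cells were above Pax5+/+ in both libraries, a difference that did not pass, while 0 markers of the list rose and Cox6a2 and Spib fell. There 1.62% of all genes tested were called higher and 2.55% lower. In bulk libraries, more cells of a type and more RNA per cell cannot be told apart, and the part of such cells in these results was not tested.

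Markers of other cells were less uniform. Counts called in Pax5-/- against Pax5+/+ cells stand beside the same 16.2% higher and 19.7% lower of all genes tested. Of the conventional dendritic cell list, Itgax was at 13.7 and 20.5 TPM in Pax5-/- against 0.697 and 0.261 TPM in Pax5+/+ libraries, and Batf3 at 1.82 and 0.398 TPM against 0 in both. Both entered the test only through Pax5-/- libraries, as Clec9a did, so their calls are not counted. The list summed to 16.8 and 26.9 TPM against at most 3.24 in the other 6 libraries. The list of monocytes, macrophages and granulocytes, cells known for Tlr2 and Tlr4, summed to 2160 TPM in Pax5-/- replicate 1 and to 419 in replicate 2, against 419 to 1573 in the other 6 libraries, of which S100a8 and S100a9 took the largest part. Of its 10 genes 2 rose, a share near that of all genes. They were Csf1r and Ly6c2, the latter at 82.8 and 99.2 TPM against 20.8 and 16.4 in Pax5+/+ libraries. Tlr4 was low in both Pax5-/- libraries alike. Of the NK cell list 3 of 4 genes tested rose and Klrb1c fell. The 5 genes found of the T cell list summed to at most 6.17 TPM in any library. Cd3e and Cd3d were at 0 in Pax5+/+ replicate 1, and Cd3e also in Pax5-/- replicate 2. Erythroid genes summed to 13.0 and 34.4 TPM in Pax5-/- against 71.2 to 128 TPM in the other libraries, and later B cell genes to 20.0 and 20.7 TPM against 31.3 to 87.2 TPM.

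**Figure D3:**
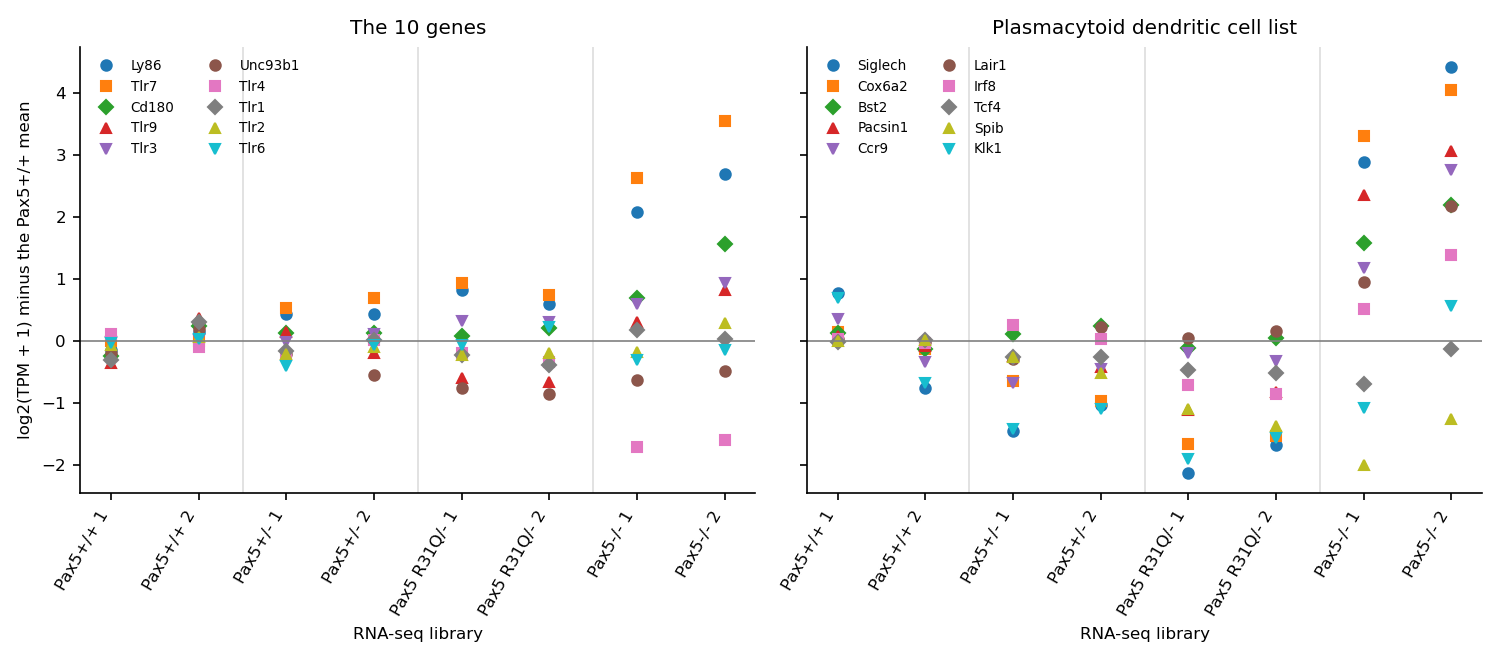
Log2(TPM + 1) minus its mean over the Pax5+/+ libraries, in each RNA-seq library, for the 10 genes on the left and for the 10 markers of plasmacytoid dendritic cells on the right, with 1 symbol per gene. In the Pax5-/- libraries Tlr7 and Ly86 stood above the other 8 genes, as did Siglech and Cox6a2 on the right, while in Pax5 R31Q/- libraries Tlr7 and Ly86 were above 0 and Siglech and Cox6a2 below it.

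Pax5 peaks lay within 1 kb of a transcription start site (TSS) for 3 of the 10 genes in Pax5+/+ pro-B cells, which were Tlr9, Cd180 and Unc93b1. Over the 12893 genes tested that matched the annotation, 66.0% had such a peak. There were also 3 in Pax5 R31Q/- pro-B cells, which were Cd180, Unc93b1 and Tlr4, against 71.1% of all. So Cd180 and Unc93b1 had a TSS peak in both, Tlr9 only in Pax5+/+, and Tlr4 only in Pax5 R31Q/- cells. With 1 library per genotype, these differences have no replicate check, and a missing peak may be one that fell short of the threshold of the peak caller. Of all genes with a TSS peak in Pax5+/+ cells, 3.85% had none that a Pax5 R31Q/- peak met, and 7.38% of the genes tested had a TSS peak only in Pax5 R31Q/- cells. Windows of 200 bp and of 2.5 kb gave the same 3 genes in each list.

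Counting 10 kb on either side of the genes, 13 Pax5+/+ peaks lay in or near 6 of the 10 genes, and 5 of them were met by a Pax5 R31Q/- peak by at least 1 bp. That is 38.5%, beside 37.5% of all 41983 Pax5+/+ peaks. The Pax5 R31Q/- list had 6 peaks in or near 4 of the genes, of which 5 were common, beside 81.6% of all 18821. Tlr1, Tlr2, Tlr3 and Tlr7 had no peak within 10 kb in either list. For Tlr7, the nearest was a common peak 44.1 kb upstream of its TSS, at chrX:167374431-167374950, and the nearest TSS to that peak was that of Prps2.

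**Figure D4:**
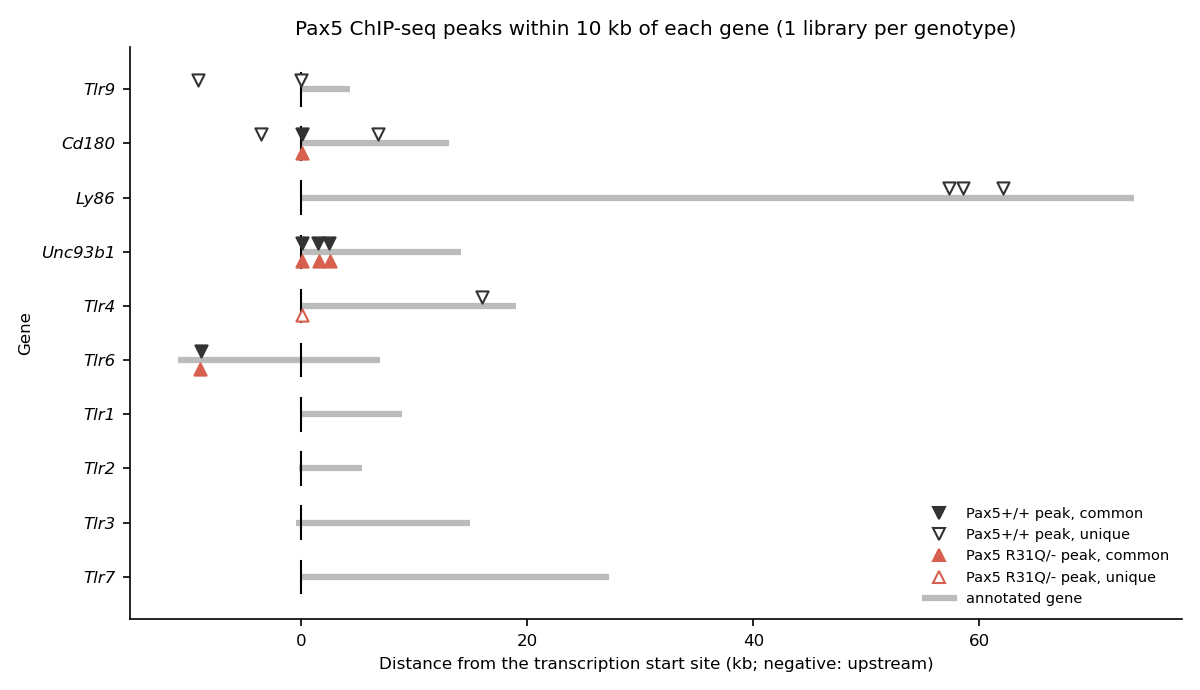
Midpoints of the Pax5 peaks within 10 kb of each gene by their distance from the TSS in kb, with Pax5+/+ peaks above the line and Pax5 R31Q/- peaks below it, filled where the peaks of both genotypes overlap. Grey bars are the annotated genes and black ticks the TSS. Tlr9 and Ly86 had peaks only in Pax5+/+ cells, the peaks of Unc93b1 were common, and 4 genes had none.

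The Tlr9 gene lies at chr9:106222598-106226876 on the plus strand (GRCm38, the build of the files). Its Pax5+/+ TSS peak, chr9:106222316-106222867, was 552 bp wide, wider than 85.5% of Pax5+/+ peaks, and was centred 6.5 bp upstream of the TSS. No Pax5 R31Q/- peak met it. A second Pax5+/+ peak without a counterpart, chr9:106213287-106213622, lay 9.14 kb upstream, with 66.4% of its bases marked as repeats in the assembly. The nearest Pax5 R31Q/- peak, chr9:106211952-106212272, lay 10.5 kb upstream and was unique to those cells. Both Pax5 R31Q/- RNA-seq libraries were the lowest for Tlr9, but the difference from Pax5+/+ did not pass, as given above.

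Cd180 lies at chr13:102693547-102706631 on the plus strand. Its common TSS peak was 613 bp wide in Pax5+/+ (chr13:102693335-102693947) and 697 bp in Pax5 R31Q/- cells (chr13:102693268-102693964). Narrower Pax5+/+ peaks of 342 bp at 3.55 kb upstream and of 271 bp in an intron, 6.75 kb downstream of the TSS, had no counterpart. The 250 bases upstream of the TSS, which lie inside the Pax5+/+ peak of Tlr9 and inside the Pax5 R31Q/- peak of Cd180, are shown to set a promoter with a unique peak beside one with a common peak. They are from RefSeq, GRCm38.p6, 5′ to 3′ on the gene's strand. The letters GCGTGAC and GCANCCA, which are parts of the Pax5 recognition sequence, were searched on both strands, and a match would stand in capitals.
Tlr9, chr9:106222348-106222597, plus strand: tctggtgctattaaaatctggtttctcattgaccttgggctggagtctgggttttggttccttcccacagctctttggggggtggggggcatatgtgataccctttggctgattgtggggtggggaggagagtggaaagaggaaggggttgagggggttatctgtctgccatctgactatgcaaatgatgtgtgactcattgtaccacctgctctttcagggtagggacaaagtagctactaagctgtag
Cd180, chr13:102693297-102693546, plus strand: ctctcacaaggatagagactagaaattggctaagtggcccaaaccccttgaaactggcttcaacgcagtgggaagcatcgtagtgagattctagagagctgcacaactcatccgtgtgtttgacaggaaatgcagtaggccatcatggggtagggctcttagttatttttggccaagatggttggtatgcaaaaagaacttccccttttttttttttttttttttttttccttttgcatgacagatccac
Neither stretch held a match to either word, nor did those of Tlr1, Tlr2, Tlr3, Tlr6 and Ly86. Of 32851 promoters of that length, 1.78% held GCGTGAC and 16.7% held GCANCCA. The absence of exact matches says only that these letters are not in these windows.

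Ly86 spans chr13:37345345-37419036 on the plus strand and had no TSS peak in either list. Its 3 Pax5+/+ peaks lay in an intron, between 57.3 and 62.1 kb downstream of the TSS, and none was met by a Pax5 R31Q/- peak. They were 246, 266 and 430 bp wide, beside medians of 316 bp for unique and 468 bp for common Pax5+/+ peaks. The third, chr13:37407190-37407619, was wholly repeat and held a 24-base word that 52.7% of the 26256 unique Pax5+/+ peaks shared, and 0.223% of the 15727 common ones. This word was picked as the commonest one of the unique peaks themselves, so a larger share there was favoured by the choice.
Word shared by unique Pax5+/+ peaks: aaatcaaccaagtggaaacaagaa
Without the peaks that hold this word, 44.2% of 28101 Pax5+/+ peaks were unique. The first of the Ly86 peaks, chr13:37402569-37402814, had 9.8% of its bases in repeats, and 300 bases around its midpoint are shown as an example of the 3 peaks of that gene, all present in Pax5+/+ cells only.
Ly86 intron, chr13:37402542-37402841, plus strand: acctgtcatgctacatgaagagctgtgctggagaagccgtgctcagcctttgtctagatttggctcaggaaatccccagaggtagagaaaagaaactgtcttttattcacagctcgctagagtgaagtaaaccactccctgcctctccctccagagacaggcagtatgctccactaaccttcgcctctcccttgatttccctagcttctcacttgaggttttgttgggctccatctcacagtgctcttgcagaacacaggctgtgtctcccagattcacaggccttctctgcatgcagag
It held neither of the words searched. In windows of this length, 1.68% of unique and 7.29% of common Pax5+/+ peaks held GCGTGAC, and 8.77% and 24.2% held GCANCCA.

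Unc93b1, at chr19:3935158-3949340 on the plus strand, had 3 Pax5 peaks in each list, and all were common. They were centred 76, 1500.5 and 2428 bp downstream of the TSS in Pax5+/+ cells and were 349, 448 and 531 bp wide. The first lay over a coding exon and the others in introns. The widths of the Pax5 R31Q/- peaks were 459, 560 and 540 bp. Of the 10 genes, Unc93b1 had the most common peaks, and its level in Pax5 R31Q/- cells was below that of Pax5+/+ cells, as given above.

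Tlr4, at chr4:66827551-66846581 on the plus strand, had the only unique Pax5 R31Q/- peak within 10 kb of the 10 genes, chr4:66827434-66827862, which was 429 bp wide, wider than 30.0% of that list, and centred 97 bp downstream of the TSS. A Pax5+/+ peak of 273 bp, chr4:66843384-66843656, lay 16.0 kb downstream in an exon outside the coding sequence and had no counterpart. Tlr4 levels in Pax5 R31Q/- and Pax5+/+ cells did not differ at the threshold, as given above. At Tlr6, chr5:64953092-64970942 on the minus strand, a common peak of 397 bp (chr5:64968754-64969150) lay 8.90 kb upstream of the nearest curated TSS. It was still inside the annotated gene, which reaches beyond the curated TSSs. The TPM of Tlr6 used a length of 3727 bases, against 2747 for the curated exons. The peak also lay 1123 bp from the TSS of Fam114a1, which overlaps Tlr6 on the other strand. The peak of Tlr6 was the only one of the 13 Pax5+/+ peaks whose central 300 bases held GCANCCA, and 0 held GCGTGAC. Of the 6 Pax5 R31Q/- peaks, 2 held GCANCCA, at Tlr6 and at the TSS of Tlr4.

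The rest of the pathway was read from lists of related genes, and the counts in Pax5-/- cells stand beside the 16.2% of all genes tested that were called higher and the 19.7% called lower. Those in Pax5 R31Q/- cells stand beside 1.62% and 2.55%. Among the other Toll-like receptors, only Tlr5 and Tlr12 of 5 reached 1 TPM in a library. Tlr12, a sensor of profilin, fell in Pax5 R31Q/- cells from a mean of 10.9 to 3.74 TPM (log2 difference -1.33, SE 0.16, limma adjusted p = 0.005). In Pax5-/- cells it was at 8.02 TPM (adjusted p = 0.0828), and it was lower in Pax5 R31Q/- than in Pax5-/- cells (adjusted p = 0.00405) and than in Pax5+/- cells (adjusted p = 0.0229). The call against Pax5+/+ was lost without either Pax5 R31Q/- library (adjusted p = 0.0545 and 0.0752). Tlr5, the flagellin receptor, fell in Pax5-/- cells from 2.24 to 0.224 TPM (log2 difference -1.38, SE 0.22, adjusted p = 0.00259).

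Of 12 tested co-receptors, chaperones and enzymes of endosomal processing, 4 rose and 2 fell in Pax5-/- against Pax5+/+ cells. The proteases legumain (Lgmn, from 75.8 to 254 TPM), cathepsin L (Ctsl, from 7.46 to 26.1 TPM) and cathepsin S (Ctss, from 108 to 235 TPM), which process endosomal receptors and antigens, rose. Cd36, a co-receptor of Tlr2, fell from 11.7 to 0.330 TPM and Ifi30, a lysosomal thiol reductase, from 105 to 57.4 TPM. With only these 2 genotypes fitted, Ctsl did not pass (adjusted p = 0.062). Ifi30 did not pass in 4 alternatives, 3 of them without Pax5+/+ replicate 2 or either Pax5-/- library. Of these 12 genes, 1 rose and 1 fell in Pax5 R31Q/- cells. These were Lgmn at 159.7 TPM (log2 difference 1.07, SE 0.11, limma adjusted p = 0.00311) and Cd36 at 1.86 TPM (log2 difference -2.16, SE 0.22, limma adjusted p = 0.00259). The call of Lgmn was lost without either Pax5 R31Q/- library (adjusted p = 0.0541 and 0.0523).

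Of 17 tested adaptors, kinases and ubiquitin enzymes, 3 rose and 4 fell in Pax5-/- cells, and 0 passed in Pax5 R31Q/- cells. The adaptor Ticam2 (from 18.9 to 40.5 TPM) and the kinases Irak1 (from 54.7 to 96.1 TPM) and Irak2 (from 2.59 to 5.15 TPM) rose. The ubiquitin ligase Traf6 (from 49.9 to 21.5 TPM) and the kinases Btk (from 138 to 68.3 TPM) and Syk (from 521 to 335 TPM) fell. Btk and Syk also act in receptors of B cells, and Syk did not pass in 4 alternatives, Pax5+/+ replicate 1 or Pax5-/- replicate 1 being left out in 2 of them. Btk did not pass without Pax5+/+ replicate 1 (adjusted p = 0.052), and with only these 2 genotypes fitted neither Btk nor Irak2 passed (adjusted p = 0.0515 and 0.0723). The shares of this list that rose and fell were near those of all genes. The adaptor Myd88 was at 57.7 ± 0.95 TPM (SD, n = 2) in Pax5+/+, 57.0 ± 4.54 in Pax5+/-, 53.4 ± 5.90 in Pax5 R31Q/- and 62.1 ± 1.70 TPM in Pax5-/- cells.

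Of 9 inhibitors of the pathway, 0 rose and 4 fell in Pax5-/- cells. Pik3ap1, an adaptor of phosphoinositide 3-kinase, fell from 484 TPM in Pax5+/+ to 98.0 TPM in Pax5-/- cells (log2 difference -2.30, SE 0.15, limma adjusted p = 4.41e-05). It was also the gene of this list that fell in Pax5 R31Q/- cells, to 129 TPM (log2 difference -1.91, SE 0.15, limma adjusted p = 0.0011). Irak3, which blocks the release of active kinases from the receptor, fell in Pax5-/- cells from 26.1 to 7.88 TPM and Dok3 from 589 to 313 TPM, the latter not passing in 4 alternatives, with Pax5+/+ replicate 2 (log2 difference -0.57 against -0.88, adjusted p = 0.122) or Pax5-/- replicate 1 left out in 2 of them. Of 14 genes of the NF-kB and IRF arm, 3 rose and 0 fell in Pax5-/- cells, and 0 passed in Pax5 R31Q/- cells. Irf7, the interferon regulatory factor downstream of Tlr7 and Tlr9, rose from 38.4 to 111 TPM, Irf8 from 194 to 391 TPM and the kinase Ikbke from 17.9 to 32.0 TPM. Irf8 is also on the list of plasmacytoid dendritic cell markers, and it did not pass in 4 alternatives, with either Pax5+/+ library left out in 2 of them. Its log2 difference was 0.94, and 0.50 without Pax5-/- replicate 2. With only these 2 genotypes fitted, Ikbke did not pass either (adjusted p = 0.0645). The median log2 difference of the lists in Pax5-/- cells ran from -0.89 for the 2 other receptors to 0.44 for the co-receptors and processing enzymes, beside -0.11 for all genes.

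**Figure D5:**
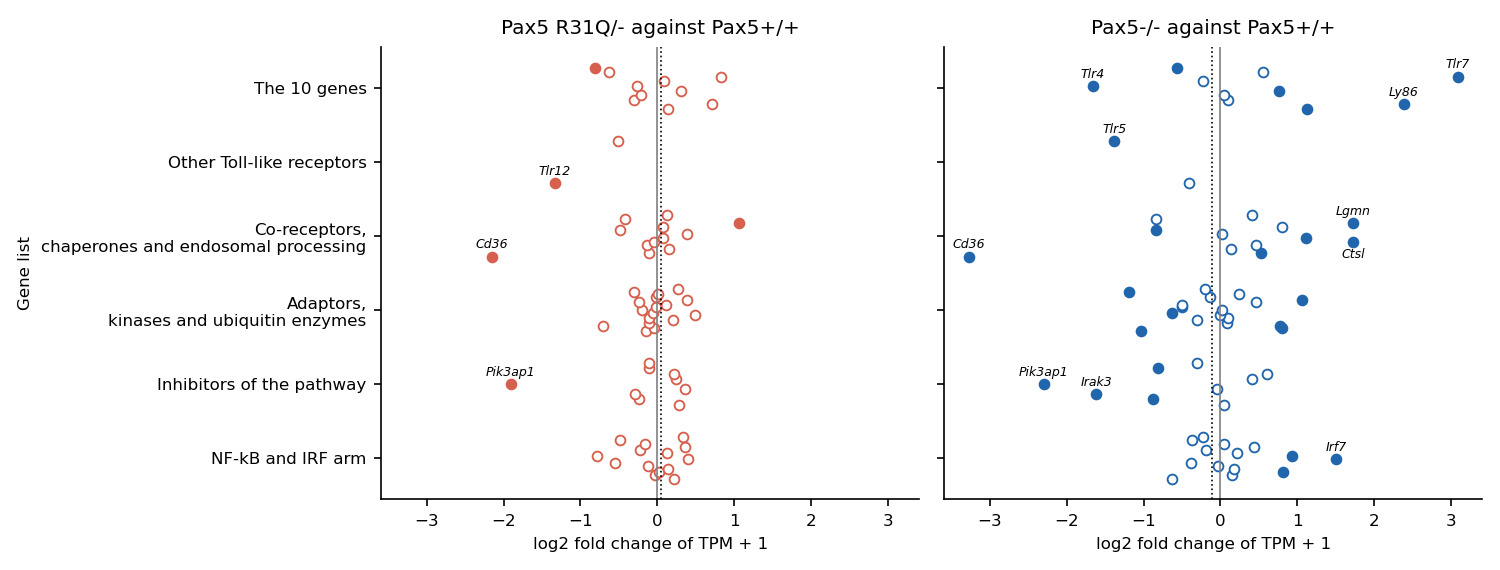
Log2 fold change of TPM + 1 against Pax5+/+ for the tested genes of each list in Pax5 R31Q/- cells on the left and Pax5-/- cells on the right, with 1 point per gene, filled where the adjusted p is under 0.05. The dotted line is the median of all genes tested. Pik3ap1 and Cd36 fell in both, Tlr12 in Pax5 R31Q/- and Tlr5 in Pax5-/- cells.

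Genes with a profile most like that of a member were sought for the 3 members with the lowest adjusted p in Pax5 R31Q/- against Pax5+/+ cells, by Pearson's correlation of log2(TPM + 1) over the 8 libraries among 3138 genes whose genotype means spanned at least 1 on that scale. The 8 points fall into 4 genotypes, so these values describe the profile only. For Ly86 they were Npc1, a lysosomal cholesterol transporter (r = 0.996), Tlr7 (r = 0.995) and 4632404H12Rik (r = 0.993). For Tlr7 they were D16Ertd472e (r = 0.998), Ly86 (r = 0.995) and Leprotl1 (r = 0.994). Npc1 had mean levels of 20.4, 26.9, 31.3 and 68.5 TPM in Pax5+/+, Pax5+/-, Pax5 R31Q/- and Pax5-/- cells, in the order of Ly86. For Unc93b1 they were Parp3 (r = 0.967), 1110008P14Rik (r = 0.966) and Whrn (r = 0.961). Parp3 had mean levels of 44.0, 27.3, 18.3 and 20.3 TPM in the same genotypes, lowest in Pax5 R31Q/- cells as Unc93b1 was.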

How the data were processed

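The authors aligned the RNA-seq reads with STAR 2.4.2, counted them on RefSeq genes and deposited TPM values. The Pax5 ChIP-seq reads were aligned with Bowtie2 2.3.5.1 to mm10 and peaks were called per library with MACS, per the submitters' notes. The deposited peak files hold a start and an end, with a score of 0 throughout. Samples were grouped from their labels. The 10 genes and all gene lists were chosen with earlier results of these data known.

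Genotypes were compared on log2(TPM + 1) by limma (version 3.58.1, under R 4.3.3), with a trend of the variance, 4 genotypes in 1 fit and adjustment over 13436 genes with TPM of at least 1 in 1 library. The steps of the TPM values gave whole reads, within 0.001, for 18204 of 18206 genes above 0 in at least 2 libraries. limma-voom on these reads was added after seeing the data. The script was tested on simulated data. The authors' DESeq2 results were not used.

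Peaks were placed with Python 3.11.15, pandas 2.3.3 and pysam 0.24.0 on RefSeq GRCm38.p6, the build of the files, using curated TSSs. Promoter sequences matched 7 of the 10 genes. Named genes were the 10 members, in each list the 3 that passed with the largest rise and fall in Pax5-/- cells and the 2 in Pax5 R31Q/- cells, and the 3 genes most like each of 3 members. Myd88 and the markers were named in addition, after their values were seen. Alternatives covered the pseudocount, filter, samples, scaling, trend, omission of each library, TSS windows, distances and overlap. The input library and read density were not analysed here, and a pro-B cell marker is not reported here.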

Additional observations from a re-analysis of the deposited data

How the results depend on the processing

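Among the 10 genes, the calls of Ly86, Tlr7 and Tlr4 in Pax5-/- against Pax5+/+ cells and in Pax5 R31Q/- against Pax5-/- cells passed in the same direction in all 16 alternatives. Genes lower in Pax5 R31Q/- than in Pax5+/+ cells, 1 as reported, came to 0 with no filter, with 2 genotypes fitted and without a trend. Those higher in Pax5-/- cells, 3 as reported and 4 with Tlr3, came to 2 with 2 genotypes fitted, and those lower came to 1 of 2 with no filter, 2 genotypes, median-ratio scaling or no trend. Leaving out single libraries gave 0 to 2 higher and 0 to 1 lower in Pax5 R31Q/- against Pax5+/+, 2 to 4 higher and 1 to 2 lower in Pax5-/-, and 2 to 6 lower in Pax5 R31Q/- against Pax5-/- cells, where the 4 and the 6 include Tlr3. The cause was not tested. Differences that did not pass changed sign without single libraries and ran from -0.061 to 0.231 for Tlr6 and -0.11 to 0.38 for Cd180 (Pax5 R31Q/- against Pax5+/+), -0.38 to 0.23 for Tlr1, -0.017 to 0.104 for Tlr3, -0.235 to 0.009 for Tlr4, -0.39 to 0.34 for Tlr9 and -0.12 to 0.37 for Cd180 (Pax5+/-), -0.21 to 0.40 for Tlr1 and -0.17 to 0.28 for Tlr2 (Pax5-/-), and -0.051 to 0.078 for Cd180 (Pax5 R31Q/- against Pax5+/-, -0.006 with quantile normalization). The 13 Pax5+/+ peaks near the genes became 25 within 50 kb and 5 at 400 bp width or more, and the 5 common ones 12 and 3. A lone library left in a genotype is assumed to vary like the other groups. No paired analysis was possible because the labels give no replicate numbers, and the numbers used here only name libraries. The 95% confidence interval of Tlr1 in Pax5-/- cells, -0.45 to 0.64, shows what 2 libraries leave unresolved near 1 TPM.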
